A study of Rattus norvegicus with 67 samples.

Results

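The 100 transcripts with the highest mean abundance were examined in endometrial tumours and in normal endometrium from rats of the BDII/Han strain. They were taken from a table of 31715 transcripts measured in 65 RNA-seq libraries, in the order of their mean TPM over all 65 libraries. TPM is a level corrected for transcript length and scaled so that each library sums to 1000000. The mean TPM that chose these transcripts is therefore a description of them and was not tested. The table gives Ensembl identifiers without gene symbols, and no table used here pairs the identifiers with genes. The transcripts are accordingly named by identifier, no function is assigned to any of them, and the labelled tissue could not be checked against marker genes.

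This strain develops endometrial cancer spontaneously. The control group ate normal chow (NCD, 3% of kcal as fat) and the other rats a high fat diet (HFD, 60% of kcal as fat), and all were examined at about 15 months. In the first sequencing batch named by the labels, no rat had an intervention. It held 4 libraries of normal endometrium from 4 NCD rats, 4 from 4 HFD rats, 14 tumour libraries from 5 NCD rats and 11 tumour libraries from 4 HFD rats. In the second batch every rat was on HFD. It held normal endometrium of rats without intervention (4 libraries, 4 rats), of rats given liraglutide at up to 0.24 mg/kg/day (12 libraries, 9 rats) and of rats placed on diet restriction from month 12 (10 libraries, 10 rats). Liraglutide is a long acting agonist of the GLP-1 receptor. Tumours of the second batch came from 2 liraglutide-treated rats (3 libraries) and 2 diet-restricted rats (3 libraries). No NCD library and no tumour without intervention was in the second batch, and no treated rat was in the first, so diet could be compared in the first batch and intervention in the second. A rat was defined by its number within diet, intervention and batch, which gave 37 rats. Library totals ranged from 15310806 to 20029879 estimated counts, with a median of 17559550. The study's own sample table describes 3 normal libraries of the first batch (S1 and S20 from NCD rats 1 and 7, S35 from HFD rat 22) as mixed normal and tumour tissue, and shares, fits and tests that rest on them are also given without them.

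In polyadenylated RNA a small number of transcripts commonly accounts for a large part of all molecules. In many tissues these come from the mitochondrial genome, which encodes subunits of the respiratory chain, and from nuclear genes for ribosomal proteins, translation factors and the cytoskeleton. Secretory epithelia, of which the glands of the endometrium are one, can add abundant messages for secreted proteins. Which of the 100 transcripts belong to such classes cannot be read from identifiers. A share is a closed quantity, so that a rise of some transcripts lowers the share of all others. In bulk tissue, fewer cells of a type and less RNA per cell cannot be told apart.

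The 100 transcripts held on average 46.1% of a library's TPM (SD 3.84, n = 65 libraries). The first alone held 4.24%, the first 5 held 17.7%, the first 10 held 25%, the first 20 held 30.8% and the first 50 held 38.5%. By estimated counts, which are not divided by length, the same transcripts held 23.6% (SD 3.13, n = 65). The 100 transcripts were 183 to 2176 bases long with a median of 646 bases, against a median of 1672 bases over the whole table, and 94 of them were shorter than that median. Only 53 of them were also among the 100 highest by share of estimated counts.

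Membership of the list was a property of the average and not of each library. In all, 277 transcripts were among the 100 highest of at least 1 library. Of the 100 transcripts, 35 were among the 100 highest in all 65 libraries, and a single library had 64 to 93 of them (median 85) among its own 100 highest. The transcript with the fewest such libraries had 23. At the edge of the list, ENSRNOT00000005370.6 (rank 99) had a mean of 1253 TPM and ENSRNOT00000073160.2 (rank 100) a mean of 1233 TPM. Just outside it, ENSRNOT00000016447.6 had 1224 TPM and ENSRNOT00000037043.3 had 1175 TPM. The choice was little changed by how the average was taken: 96 of the 100 were also chosen by the median, 99 by the mean of the group means, 90 in the first batch alone and 96 in the second batch alone.

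The share held by the 100 transcripts overlapped between the groups. In normal endometrium of the first batch it was 44.7% (SD 5.09, n = 4) on NCD and 47.3% (SD 5.53, n = 4) on HFD, or 41.9% (n = 2) and 48.3% (n = 3) without the mixed libraries S1, S20 and S35. In tumours of the first batch it was 45.3% (SD 4.09, n = 14 libraries) on NCD and 49.6% (SD 2.99, n = 11 libraries) on HFD. In normal endometrium of the second batch it was 45.8% (SD 2.66, n = 4) without intervention, 45.4% (SD 3.24, n = 12 libraries) with liraglutide and 45.8% (SD 2.24, n = 10) with diet restriction. The tumours of the second batch had 45.1% (SD 2.40, n = 3 libraries) and 41.6% (SD 4.74, n = 3 libraries). The lowest library, the tumour of diet-restricted rat 2, had 36.9%, and the highest, normal endometrium of HFD rat 8 of the first batch, had 55.4%.

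**Figure D1:**
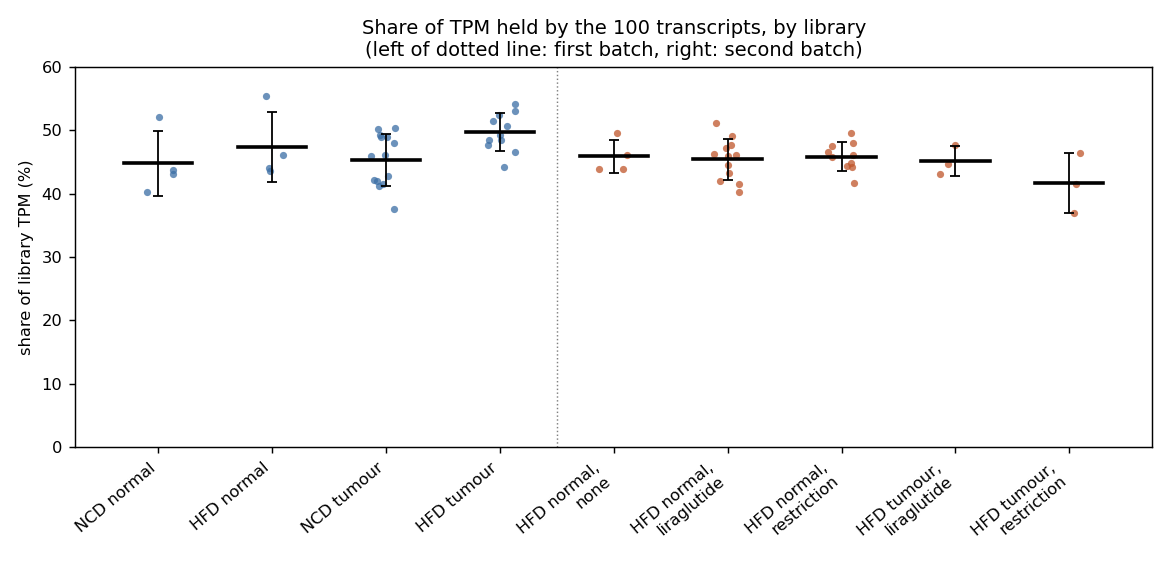
Share of each library's TPM held by the 100 transcripts (y axis, percent), with 1 point per library in each of the 9 groups and the mean with SD as a bar. Single libraries range from 36.9% to 55.4%, and the groups overlap.

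Because the list was chosen over all libraries, the share held by each library's own 100 highest transcripts was used for tests, as a measure of how concentrated a library was. It was 38.5% to 56.9% (mean 47.5%, SD 3.88, n = 65 libraries). Means per rat were compared by two-sided exact permutation tests, with p-values adjusted over 6 comparisons. HFD tumours had 51.5% (SD 2.40, n = 4 rats) and NCD tumours 47.6% (SD 4.38, n = 5 rats), a difference of 3.91 percentage points that did not pass the test (exact permutation p = 0.159, adjusted p = 0.600). Normal endometrium differed by 1.91 points between HFD and NCD (exact permutation p = 0.543, adjusted p = 0.937, n = 4 and 4 rats). This value rested on single rats. It was -0.0991 points without HFD rat 8, 0.576 without NCD rat 7, 3.42 without NCD rat 1 and 3.21 without S1, S20 and S35. Liraglutide differed from no intervention by -0.184 points (exact permutation p = 0.937, n = 9 and 4 rats) and diet restriction by 0.283 points (exact permutation p = 0.855, n = 10 and 4 rats), and with 1 rat left out these ran from -0.995 to 1.19 and from -0.529 to 1.65 points. The second batch had 46.5% (SD 2.95, n = 4 rats) and the first 50.3% (SD 4.15, n = 4 rats) in HFD normal endometrium without intervention (exact permutation p = 0.200, adjusted p = 0.600), a difference of -3.81 points. With 1 rat left out it ran from -5.18 points (without rat 15 of the second batch) to -1.80 points (without HFD rat 8 of the first batch). Without S35 it was -4.85 points. None of the 6 differences passed the threshold after adjustment, also when the 50 or 200 highest transcripts or estimated counts were used. With 4 against 4 or 4 against 5 rats, even complete separation of the groups could not pass on its own after adjustment over 6 comparisons. Those comparisons therefore cannot show that the groups are alike. The smallest unadjusted value was that for diet restriction by estimated counts, a difference of -3.81 points (exact permutation p = 0.0300, adjusted p = 0.171).

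The 10 highest transcripts were among the 100 highest in every library. ENSRNOT00000046108.3 (681 bases) was first with a mean of 42384 TPM and a range of 28138 to 65960 TPM. ENSRNOT00000046201.3 (204 bases) followed with 39217 TPM, and ENSRNOT00000050156.3 (1545 bases) with 35460 TPM. The last of these was first by estimated counts, with 4.06% of them. ENSRNOT00000043693.3 (684 bases) had 30880 TPM, ENSRNOT00000049683.3 (784 bases) had 29057 TPM and ENSRNOT00000047550.4 (955 bases) had 19112 TPM. These were followed by ENSRNOT00000040993.4 (1039 bases) with 15117 TPM, ENSRNOT00000042098.3 (1143 bases) with 14332 TPM and ENSRNOT00000042928.3 (1378 bases) with 12439 TPM. ENSRNOT00000041241.3 (348 bases) was last of the 10 with 12150 TPM. Neighbours in this order overlapped in range over the libraries.

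The 10 highest did not move together between batches. The median of ENSRNOT00000046108.3 was 48039 TPM in the 33 libraries of the first batch and 35477 TPM in the 32 of the second. ENSRNOT00000050156.3 had medians of 41298 and 28933 TPM, and ENSRNOT00000047550.4 had 24008 and 14789 TPM. The remaining transcripts of the 10 had the same order of medians, except for the 2 shortest. ENSRNOT00000046201.3 had 33487 TPM in the first batch and 44430 TPM in the second, and ENSRNOT00000041241.3 had 10039 and 13826 TPM. The 10 together held 28% of TPM (SD 4.74, n = 33 libraries) in the first batch and 21.9% (SD 3.06, n = 32 libraries) in the second. The batches differ in diet, intervention and tissue, so these medians are a description, and the comparison of like samples is given further on.

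**Figure D2:**
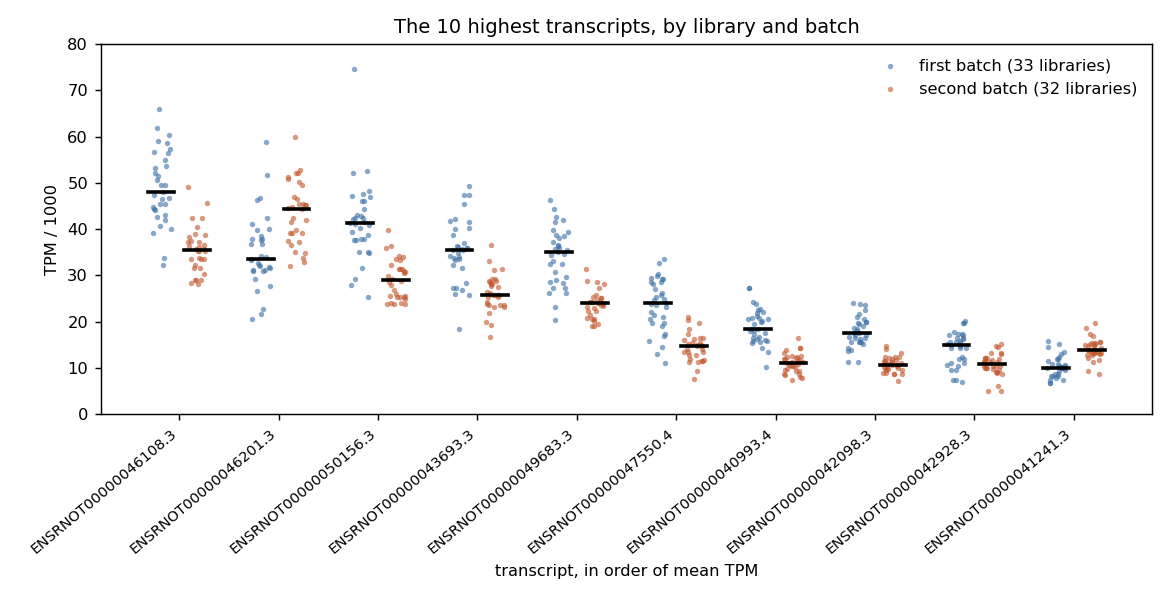
TPM divided by 1000 (y axis) of the 10 highest transcripts in the order of mean TPM (x axis), with 1 point per library, the first batch in blue and the second in orange, and the median as a bar. The second batch is lower for 8 transcripts and higher for ENSRNOT00000046201.3 and ENSRNOT00000041241.3.

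Some of these levels rest on reads that Kallisto divided among several transcripts. An estimated count that is not whole (by more than 0.001) shows such a division. For 21 of the 100 transcripts the count was whole in all 65 libraries, and for 42 it was whole in none. Among the 900 transcripts next in rank, 390 of 900 were whole in every library and 240 (26.7%) in none. Of the 10 highest, 8 were whole in every library, while ENSRNOT00000046108.3 and ENSRNOT00000046201.3 were whole in no library. Their levels are estimates that depend on how the shared reads were assigned.

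On the scale of log2(TPM + 1), the SD over the 65 libraries had a median of 0.48 among the 100 transcripts and of 0.47 among the 900 transcripts next in rank. The smallest was that of ENSRNOT00000066885.3 (SD 0.30, 1524 to 3984 TPM), followed by ENSRNOT00000066328.3 (SD 0.32, 813 to 2154 TPM) and the first transcript, ENSRNOT00000046108.3 (SD 0.32). At the other end, 9 transcripts had an SD over 1. Where several libraries came from the same tissue of a rat (33 libraries in 12 sets), the pooled SD within rats had a median of 0.20 over the 100 transcripts. The SD between the means of rats of a group had a median of 0.32, and the SD within rats was the smaller for 94 of the 100. For the next 900 both medians were 0.23 and 0.33.

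ENSRNOT00000007806.2 (705 bases) was the most variable (SD 2.28). Its level ran from 0.436 TPM, or 4 estimated counts, to 11715 TPM. In HFD normal endometrium of the first batch it had 314.9, 5010, 6872 and 9880 TPM, and in NCD normal endometrium 80.1, 347.0, 2238 and 2794 TPM, so that both groups overlapped. The lowest value was in 1 library of liraglutide-treated rat 20, whose other library of normal endometrium had 1732 TPM. It is 1 of the 6 transcripts whose SD within rats (here 1.85) was no smaller than that between rats (here 1.79).

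ENSRNOT00000005622.5 (405 bases, SD 2.27) had 2470, 6233, 7858 and 7959 TPM in the 4 libraries of normal endometrium without intervention of the second batch. With liraglutide the lowest was 32.3, the median 560.5 and the highest 9454 TPM (n = 12 libraries). With diet restriction these were 149.0, 572.0 and 4302 TPM (n = 10). All but 1 of the 10 diet-restricted libraries were below the lowest library without intervention. The 3 tumour libraries of HFD rat 11 in the first batch had 41.6, 46.3 and 50.3 TPM, against a median of 2247 TPM in the 11 HFD tumour libraries.

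ENSRNOT00000042699.4 (1420 bases, SD 1.50) had 2396, 6213, 7583 and 8807 TPM in the same 4 libraries without intervention, and a median of 1046 TPM with diet restriction (641.3 to 4421 TPM, n = 10). In NCD tumours its median was 2867 TPM (209.1 to 6484 TPM, n = 14 libraries). ENSRNOT00000026860.4 (2176 bases, SD 1.24) was the longest of the 100 and ran from 152.4 to 7041 TPM. ENSRNOT00000027445.7 (1104 bases, SD 1.15) ran from 144.2 to 5392 TPM. These 3 transcripts and ENSRNOT00000005622.5 belonged to the same block of correlated transcripts described next.

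**Figure D3:**
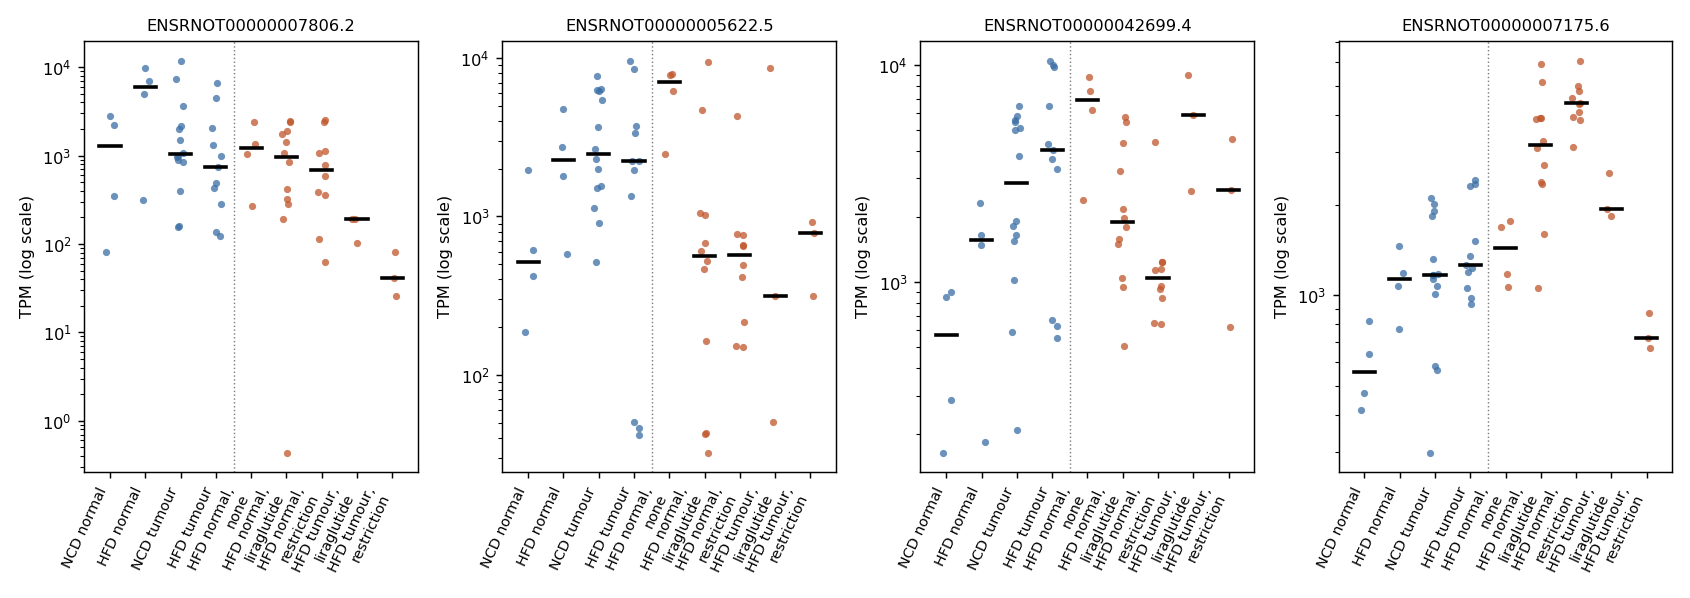
TPM on a log axis (y axis) of the 3 most variable transcripts and of ENSRNOT00000007175.6 in the 9 groups (x axis), with 1 point per library and the median as a bar. ENSRNOT00000007175.6 is highest with diet restriction in normal endometrium, between 3126 and 6044 TPM.

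Clustering of the 100 transcripts on their correlation over the libraries gave 4 blocks. The number of blocks was set for description, so that nothing was tested between them. Transcripts of a block were grouped because they vary together, so counts by block in any comparison below are not counts of independent observations. The libraries share depth, batch and normalisation to a fixed total, which all enter these correlations. Block 1 held 62 transcripts led by ENSRNOT00000046201.3, was short (median 557 bases) and held 18.0% of TPM. Its transcripts had a median correlation of 0.81 with each other over 65 libraries and of 0.71 after the group means were removed. Block 2 held 18 transcripts led by ENSRNOT00000024030.6, had a median length of 1101 bases and held 4.02% of TPM. It was the most variable block (median SD 0.87), with a median correlation of 0.47, or 0.51 within groups. Block 3 held 16 transcripts led by ENSRNOT00000046108.3, among them 8 of the 10 highest, and held 23.0% of TPM. Its median correlation of 0.50 fell to 0.14 within groups. Block 4 held 4 transcripts led by ENSRNOT00000013393.6 and 1.01% of TPM. Transcripts of block 1 and block 3 were opposed, with a median correlation of -0.50 over all libraries and of -0.20 within groups.

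Block shares differed between the batches. In the first batch block 3 held 27.1% of TPM (SD 4.29, n = 33 libraries) and block 1 held 14.8% (SD 2.16). In the second batch block 3 held 18.9% (SD 2.64, n = 32 libraries) and block 1 held 21.4% (SD 3.23). Within normal endometrium of the second batch, block 1 held 17.9% (SD 0.471, n = 4) without intervention, 21.1% (SD 3.09, n = 12 libraries) with liraglutide and 24.0% (SD 2.08, n = 10) with diet restriction. Block 2 had the reverse order, with 6.66% (SD 1.81), 4.14% (SD 1.50) and 3.01% (SD 0.881). Block 2 was also low in normal endometrium of the first batch, at 1.59% (SD 0.408, n = 4) on NCD and 2.65% (SD 0.776, n = 4) on HFD, against 4.18% (SD 1.54, n = 14 libraries) and 4.67% (SD 1.98, n = 11 libraries) in the tumours. Without S1, S20 and S35 it was 1.25% (n = 2) on NCD and 2.47% (n = 3) on HFD, while block 3 in NCD normal endometrium moved from 23.3% to 17.8% and block 1 from 17.8% to 20.3%.

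**Figure D4:**
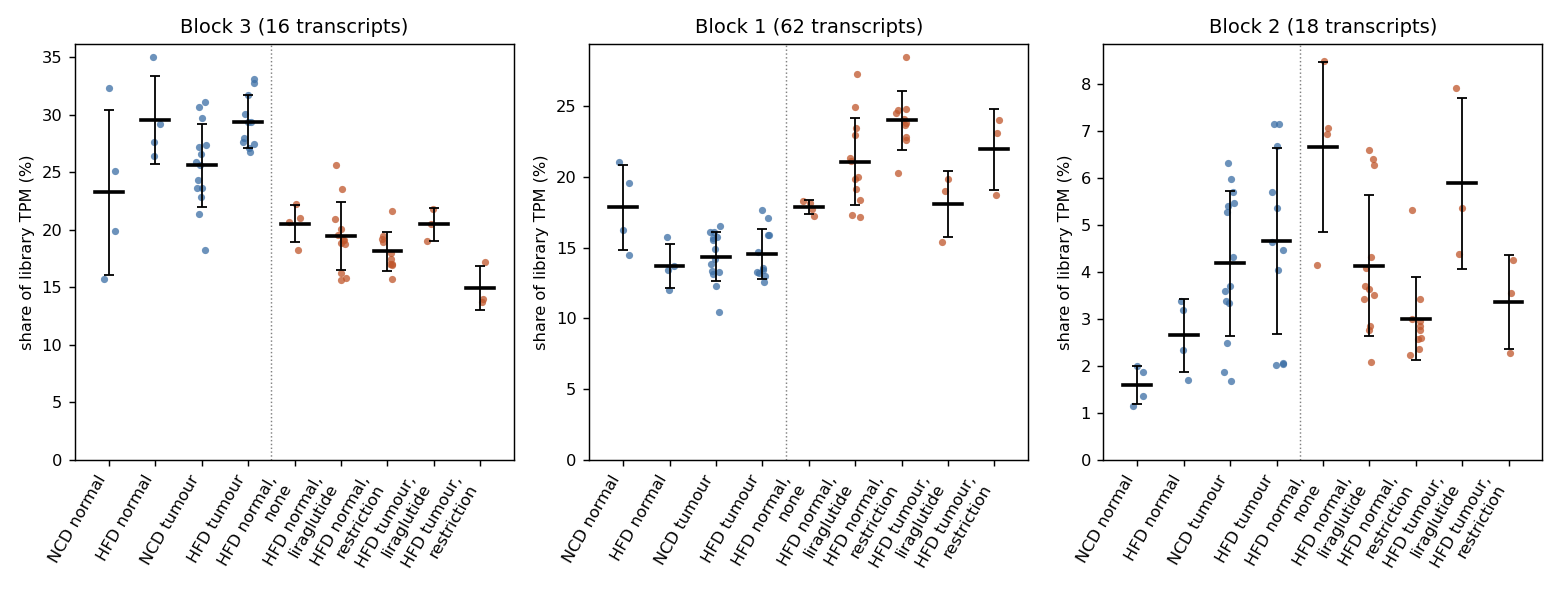
Share of TPM (y axis, percent) held by blocks 3, 1 and 2 in the 9 groups (x axis), with 1 point per library and the mean with SD as a bar. Left of the dotted line is the first batch, where block 3 is higher (27.1% against 18.9%) and block 1 is lower (14.8% against 21.4%).

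For comparisons between groups, estimated counts of all transcripts that passed a filter on low counts were fitted with limma voom, with the rat as a random effect. Benjamini-Hochberg adjusted p-values under 0.05 were called. The fitted correlation within rats was 0.57 to 0.59 in the first batch. In the second it was 0.00033 for normal endometrium and 0.08 for tumour against normal, so libraries of a rat entered there almost as independent. Fits with a single library per rat had none. All 100 transcripts passed the filter in every comparison. Fold changes are log2 of scaled counts with their standard error (SE), not of TPM. The median SE of the 100 transcripts was between 0.13 and 0.30 and was below that of all transcripts (0.19 to 0.43) in each comparison, as it was for the next 900 (0.13 to 0.28).

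The study asked, among other questions, whether obesity induced by diet alters the transcriptome. Its own limma comparison of HFD and NCD tumours reported transcripts that passed an adjusted p of 0.05. The numbers of tumour samples and rats given in the paper differ from those used here, and the reason for the different outcome was not tested. Between HFD and NCD tumours, none of the 100 transcripts was called, as was none of all 20071 transcripts tested (0% in the background). Their median difference was 0.10, 81 lay above 0 and 1 had an unadjusted p under 0.05 in limma, while edgeR and DESeq2 also called none of the 100. The highest transcript, ENSRNOT00000046108.3, had rat means of 53032 TPM (SD 4735, n = 4 rats) on HFD and 47011 TPM (SD 5255, n = 5 rats) on NCD, which overlap. In normal endometrium of the first batch none of the 100 was called either (0% of 20049 in the background), with 23 at an unadjusted p under 0.05, 3 called by DESeq2 (5.77% of all transcripts) and 0 by edgeR. Here the blocks lay on opposite sides. They were formed on correlations that include these libraries, so the counts by block are a description and not independent observations. Of block 1, 58 of 62 transcripts were below 0 on HFD (median -0.51), whereas all 18 of block 2 (median 0.90) and all 16 of block 3 (median 0.62) were above. When S1, S20 and S35 were left out, 3 transcripts were called lower on HFD (1.46% of all transcripts in either direction) and the median over the 100 moved from -0.37 to -0.69.

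Tumours and normal endometrium of the first batch did not differ in any of the 100 transcripts by limma (0 called; 0.075% of 19998 in the background), although 16 had an unadjusted p under 0.05. DESeq2 called 11 (5.96% of all transcripts) and edgeR none. Block 2 lay above 0 in the tumours for 17 of 18 transcripts (median 0.73) and block 1 below 0 for 53 of 62 (median -0.10). The count depended on few rats. Without S1, S20 and S35 it was 10, of which 9 were higher in tumours (5.26% of all transcripts, 1.66% higher). Without NCD rat 1 it was 13, near the share of all transcripts (12.2%), and without HFD rat 11 it was 1. On log2(TPM + 1), 12 transcripts were higher and 2 lower in the tumour of each of the 3 rats with both tissues, against 7.82% and 11.1% of all transcripts tested. Of the 896 tested among the next 900, 12.9% were higher and 4.24% lower in all 3 rats, near the values of the 100. All 3 normal samples in these pairs are mixed ones (S1, S20 and S35). The interaction of diet and tissue was passed by 0 of the 100 (0.020% of 19998 in the background; 4 had an unadjusted p under 0.05 in limma, and edgeR and DESeq2 called none), and by 14 without S1, S20 and S35 (3.43% of all transcripts).

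**Figure D5:**
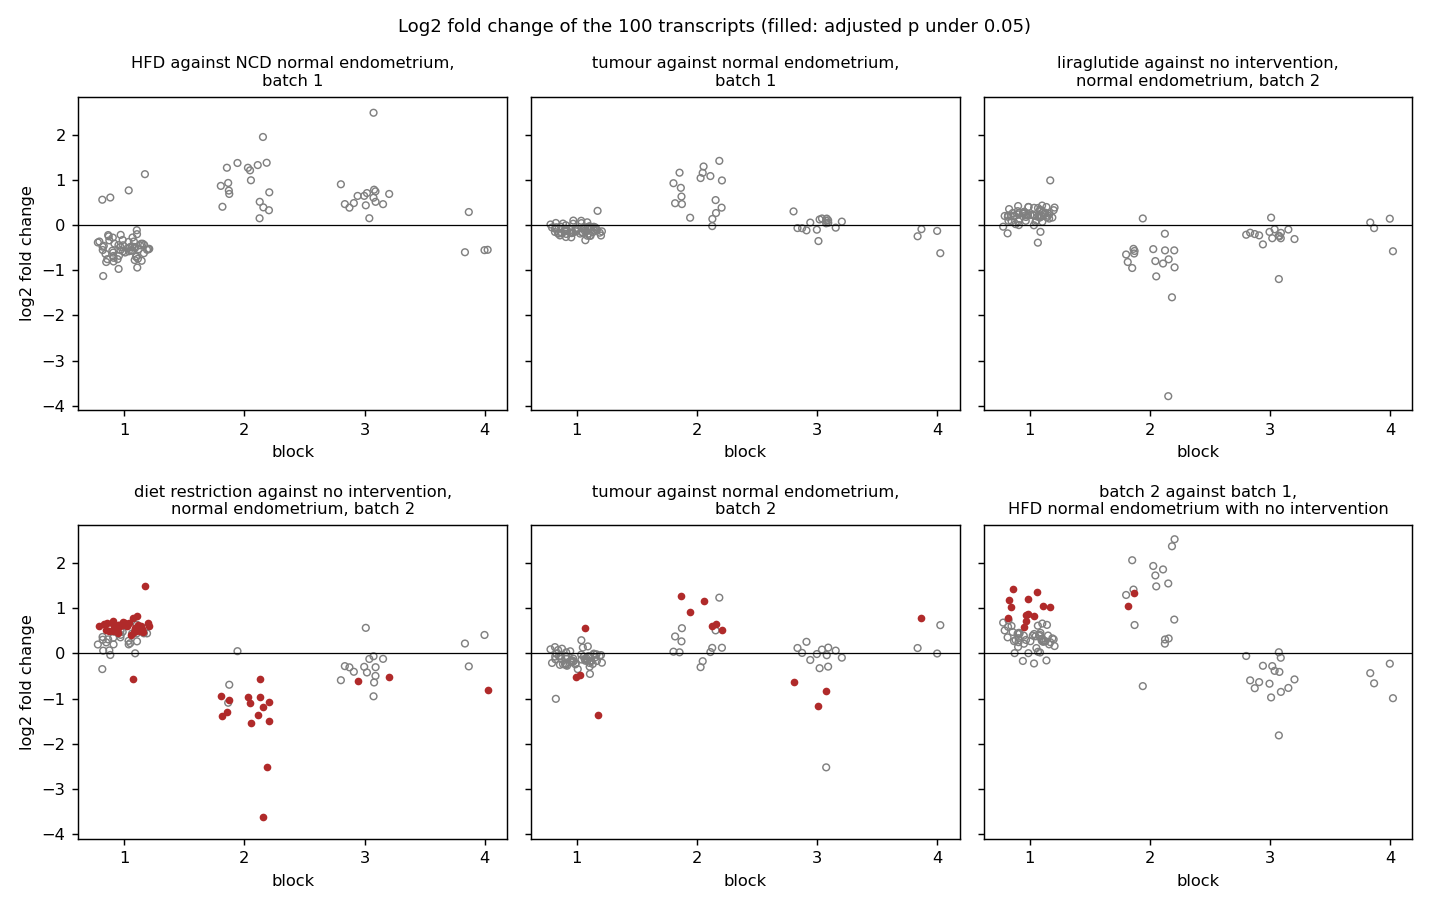
Log2 fold change (y axis) of the 100 transcripts in 6 comparisons, by block (x axis). Filled points passed an adjusted p of 0.05: 53 for diet restriction against no intervention, 14 for tumour against normal endometrium of the second batch, 15 between batches and 0 in the other 3.

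The largest set of calls was found between diet-restricted and untreated HFD rats in normal endometrium of the second batch (n = 10 and 4 rats). Of the 100 transcripts, 34 were higher with diet restriction (8.15% of 19954 in the background) and 19 were lower (12.5% in the background). Of the 900 next in rank, 69 were higher and 273 lower, or 38.1% in all against 53% of the 100. The blocks were formed on correlations that include these libraries, so the counts by block are a description. In block 1, 34 of 62 were higher and 1 was lower, with a median of 0.49. In block 2, 15 of 18 were lower and 0 higher, with a median of -1.10. Block 3 had 2 lower and block 4 had 1 lower, and none of the 10 highest transcripts was called.

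ENSRNOT00000007175.6 (785 bases, rank 46), a transcript of block 1, had the smallest adjusted p among those higher. It had 1064, 1175, 1694 and 1770 TPM in the 4 rats without intervention. With diet restriction the lowest was 3126, the median 4362 and the highest 6044 TPM (n = 10). The groups did not overlap, and it was 2.81-fold higher (log2 fold change 1.49, SE 0.30, limma adjusted p = 0.00253). In liraglutide-treated rats it ranged from 1060 to 5902 TPM (median 3180 TPM, n = 12 libraries), and there its difference of 0.99 (SE 0.29) from no intervention did not pass the test (limma adjusted p = 0.0923). Its estimated counts were whole in every library.

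ENSRNOT00000005588.7 (574 bases, rank 30) had 1883, 1964, 2339 and 2383 TPM without intervention and 2806 to 4942 TPM (median 3831 TPM, n = 10) with diet restriction. It was 1.60-fold higher (log2 fold change 0.68, SE 0.17, limma adjusted p = 0.00831), with no overlap between groups. Its counts were not whole in any library. Of those lower, ENSRNOT00000080216.1 (1323 bases, rank 49) had 2374, 2820, 2823 and 3343 TPM without intervention and 1105 to 1990 TPM (median 1450 TPM, n = 10) with diet restriction. Its level was 2.12-fold lower (log2 fold change -1.09, SE 0.19, limma adjusted p = 0.00114). ENSRNOT00000005370.6 (816 bases, rank 99) had 1497, 1520, 1731 and 1995 TPM without intervention and 686.8 to 1130 TPM (median 801.9 TPM) with diet restriction. It was 2.27-fold lower (log2 fold change -1.18, SE 0.23, limma adjusted p = 0.00208), and neither transcript overlapped between groups.

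The abundant and variable transcripts of block 2 were among those lower. ENSRNOT00000024030.6 (rank 12, described after its values were seen as the first of its block) had 8391, 12576, 15614 and 17750 TPM without intervention and a median of 5398 TPM with diet restriction (3889 to 11478 TPM, n = 10). The groups overlapped, and the log2 fold change was -1.36 (SE 0.37, limma adjusted p = 0.0131). ENSRNOT00000042699.4 had a log2 fold change of -2.51 (SE 0.59, limma adjusted p = 0.00566) and ENSRNOT00000005622.5 of -3.62 (SE 1.29, limma adjusted p = 0.0474).

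These counts rest on 4 rats without intervention, and each of these rats was left out in turn. Without rat 13 there were 16 higher and 13 lower (10.9% of all transcripts called), and without rat 15 there were 18 and 9 (10.8%). Without rat 16 there were 4 higher and 13 lower (12.6%), and without rat 17 there were 16 and 20 (18.9%), so that the higher calls were no longer the more numerous. The same 4 libraries had estimated counts of 17890500 to 18922800 against 16185500 to 18426800 with diet restriction. With the total count as a further term 5 of the 100 were called, 1 higher and 4 lower, near the share of all transcripts (4.14%), while their median difference was 0.29 in place of 0.31. When libraries were scaled by size alone, the median of all transcripts moved from 0.02 to 0.26 and 73 of the 100 were called, 58 higher and 15 lower, with 3787 higher and 1247 lower over all transcripts in place of 1626 and 2495.

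Liraglutide against no intervention used the same 4 control rats. None of the 100 was called (1.01% of 19954 in the background), with 22 at an unadjusted p under 0.05. DESeq2 called 5 (3.66% of all transcripts), edgeR 0, and limma 1 when control rat 17 was left out (2.36%). Block 1 was above 0 for 56 of 62 transcripts (median 0.21), block 2 below 0 for 17 of 18 (median -0.70) and block 3 below 0 for 15 of 16 (median -0.22). Since both interventions were set against the same controls, their values are given side by side and are not independent of each other. Diet restriction against liraglutide, which does not use the control rats, called none of the 100 (0% of 19954 in the background), with 42 at an unadjusted p under 0.05, 7 called by DESeq2 (4.36% of all transcripts) and 0 by edgeR. Block 1 had a median of 0.27 and block 2 of -0.41.

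In the second batch, 8 of the 100 were higher (15.5% of 19973 in the background) and 6 lower (11.9% in the background) in tumours than in normal endometrium. This was 14.0% of the 100, against 34.6% of the 900 next in rank. Of the 8 higher, 6 were in block 2. ENSRNOT00000091873.1 (743 bases) had 1883, 2059 and 3092 TPM in tumours of diet-restricted rats and 1808, 1919 and 1957 TPM in those of liraglutide-treated rats, against medians of 1490 and 1610 TPM in normal endometrium of the same treatments (log2 fold change 0.57, SE 0.12, limma adjusted p = 0.00230). ENSRNOT00000044711.4 (908 bases) had 1381, 3636 and 5336 TPM and 1500, 1765 and 2110 TPM in these tumours, against medians of 1242 and 1342 TPM (log2 fold change 0.92, SE 0.23, limma adjusted p = 0.00512). Both tumour libraries of diet-restricted rat 9 were the highest for it, and without that rat the log2 fold change was 0.36 (limma adjusted p = 0.243).

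Of those lower, ENSRNOT00000007175.6 had 667.8, 722.0 and 874.1 TPM in tumours of diet-restricted rats, below every normal library of that treatment, and 1835, 1938 and 2564 TPM in tumours of liraglutide-treated rats, within the range of the normal libraries (log2 fold change -1.36, SE 0.28, limma adjusted p = 0.00146). ENSRNOT00000020265.7 (700 bases) had 371.4, 578.7 and 1184 TPM in tumours of diet-restricted rats and 689.6, 1224 and 2587 TPM in those of liraglutide-treated rats, against medians of 1927 and 1592 TPM (log2 fold change -0.83, SE 0.20, limma adjusted p = 0.00476). The tumours came from only 4 rats, each of which also gave normal endometrium. With the rat as a fixed replicate block 0 of the 100 were called (13 at an unadjusted p under 0.05). The share of all transcripts with that block is not given here, so the 0 cannot be read as particular to the 100. Without diet-restricted rat 9 only 1 was called (3.99% of all transcripts). Without that rat the log2 fold change of ENSRNOT00000020265.7 was -0.44, and it was -0.43 by edgeR on sums per rat, where it was not called (edgeR adjusted p = 0.190). Scaling by library size alone gave 24 calls, 8 higher and 16 lower, with 1870 higher and 3501 lower over all transcripts in place of 3101 and 2386. On log2(TPM + 1), 7 of the 100 were higher and 29 lower in the tumour of all 4 rats, against 9.12% and 14.0% of all transcripts tested and 14.3% and 10.8% of the 897 tested among the next 900. On that scale the median of all transcripts was -0.09.

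Finally, HFD normal endometrium without intervention was sequenced in both batches (n = 4 and 4 rats). In the second batch 15 of the 100 were higher (2.60% of 19937 in the background) and 0 lower (2.23% in the background), with 53 at an unadjusted p under 0.05. Among the next 900, 80 were higher and 23 lower (11.5% in all). Block 1 had 13 of the calls and block 2 the other 2, and blocks 3 and 4 had none, with medians of -0.59 and -0.55. ENSRNOT00000024678.5 (393 bases) had 1012, 1068, 1072 and 1111 TPM in the first batch and 2325, 2740, 2965 and 2980 TPM in the second (2.58-fold higher, log2 fold change 1.37, SE 0.16, limma adjusted p = 0.0162). ENSRNOT00000001265.5 (483 bases) had 1182, 1209, 1287 and 1560 TPM in the first batch and 2784, 2914, 3173 and 3345 TPM in the second (2.27-fold higher, log2 fold change 1.18, SE 0.14, limma adjusted p = 0.0162). Neither overlapped between batches, and the counts of both were not whole in any library.

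The number called between batches was fragile. Leaving out rat 8, 10, 13 or 22 of the first batch gave 9, 0, 8 and 10 calls (2.18%, 0.0306%, 2.31% and 4.25% of all transcripts). Leaving out rat 13, 15, 16 or 17 of the second gave 0, 0, 6 and 7 (0.0255%, 0.0153%, 0.387% and 1.16%). Total counts were 16754200 to 17840600 in the first batch and 17890500 to 18922800 in the second, so that depth and batch cannot be told apart, and with the total count as a term 0 were called. DESeq2 called 47, 40 higher and 7 lower, against 9.25% and 10.5% of all transcripts.

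TPM and counts need not give the same change between batches. Kallisto's effective length, by which TPM is divided, follows the fragment lengths of a library. The measures also differ in scaling, since TPM sums to a fixed total and the counts were scaled by median of ratios. Transcripts over 2000 bases were on average shortened by 183.6 to 204.1 bases in libraries of the first batch and by 161.8 to 175.8 bases in the second, with no overlap. The effective length of the 100 transcripts was 1.01 to 1.24 times greater in the second batch, and the factor was in general greater for shorter transcripts. For ENSRNOT00000046201.3, where the factor was greatest, the effective length rose from 48.3 to 59.9 bases. The log2 difference between batches by counts exceeded that by TPM by a median of 0.13 for the transcripts under 300 bases. It fell short of it by 0.12 for those over 1000 bases, and 2 of the 100 changed sign. How much of this came from effective length and how much from scaling was not tested. By TPM 35 of the 100 were called between batches in place of 15 (5.81% of all transcripts, whose median moved from -0.03 to 0.07).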

How the data were processed

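Endometrial tumours and normal endometrium were profiled by RNA-seq. The authors sequenced polyadenylated RNA as pairs of 75 bases, trimmed it with BBDuk and quantified transcripts with Kallisto, using Rnor_6.0 with the transcripts of Ensembl release 94. Sleuth is named in the submitters' processing notes, and versions of these tools are not given in the sources used here. The table deposited by the authors holds, per transcript and library, estimated counts, which need not be whole and were not scaled between libraries, together with TPM, length and effective length, which are levels and lengths of other units. Of 67 labelled samples, 65 are in the table, and the other 2 were not analysed here.

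Transcripts were ranked by mean TPM over 65 libraries and the first 100 were taken. These transcripts and all lists and comparisons were chosen with earlier results of these data known. Named are the 10 highest, ranks 99 to 102, the 5 most and 3 least variable, and per comparison the 2 called transcripts of each direction with the smallest adjusted p. Without symbols, no marker list could be used.

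Comparisons were fitted over the whole table with limma 3.58.1 (voom, 2 rounds of duplicateCorrelation on the rat, robust empirical Bayes) in R 4.3.3, keeping transcripts with 5 or more estimated counts in 47% or more of the libraries compared, with median-of-ratios scaling and Benjamini-Hochberg adjustment at 0.05. The script was tested on simulated counts. Tissues are paired in 3 rats of the first batch and 4 of the second by the individual number in the labels, which was entered as a fixed block in an alternative. Within the second batch rat numbers 14, 16 and 17 occur under more than 1 intervention, and 10 numbers occur in both batches. These were counted as different rats, which nothing else in the labels states. The paper counts fewer individual rats with normal endometrium than this rule gives. For the fits of the second batch, rats counted by number alone were an alternative. Shares were compared by exact permutation over rat means with scipy 1.17.1. Alternatives used edgeR 4.0.16 and DESeq2 1.42.0 on rounded sums per rat, other scalings and filters, log2(TPM + 1), the total count as a term, other choices of members, and omission of each rat in turn for groups of 5 rats or fewer (for shares, of every rat). Shares without S1, S20 and S35 were added after the data were seen. The depth was 15310806 to 20029879 estimated counts, and counting error was not compared with the spread between rats.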

Additional observations from a re-analysis of the deposited data

Results flagged for a closer look

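The highest or lowest rat of a group of 4 to 10 was compared with its neighbour, relative to the group's range (Dixon's criterion). The measures compared included the highest and the most variable of the named transcripts. This criterion flagged 8 of 119 groups. Chance alone flags about 1 in 20 where groups are independent and not chosen by their spread. Here the most variable transcripts were chosen by their spread in these libraries, and those of block 2 were correlated. The number flagged therefore cannot be set against that rate, and the flags are a description. In normal endometrium of diet-restricted rats, rat 6 stood apart for 4 transcripts of block 2. It had 4302 TPM of ENSRNOT00000005622.5 where the next rat had 770.9 TPM, 4421 TPM of ENSRNOT00000042699.4 (next 1240 TPM), 2208 TPM of ENSRNOT00000026860.4 (next 1203 TPM) and 3332 TPM of ENSRNOT00000027445.7 (next 2164 TPM). In liraglutide-treated rats, rat 14 had 9454 TPM of ENSRNOT00000005622.5 (next 4728 TPM).

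In the first batch, NCD rat 1 had 9531 TPM of ENSRNOT00000007806.2 in its tumours (next 2894 TPM) and 13412 TPM of ENSRNOT00000041241.3 in normal endometrium (next 7293 TPM), the library described by the study as mixed tissue. NCD rat 4 had 21048 TPM of ENSRNOT00000042098.3 in its tumours (next 16168 TPM). The cause of these values was not tested.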

How the results depend on the processing

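The values below are numbers of the 100 transcripts called. Where no share of all transcripts stands beside a number, it cannot be read as a change particular to the 100. HFD against NCD tumours stayed at 0 under every alternative. For normal endometrium by diet, 3 were called by DESeq2 (5.77% of all transcripts) and 3 without S1, S20 and S35 (1.46%). For tumour against normal endometrium of the first batch, 11 were called by DESeq2 (5.96% of all transcripts) and 11 without the correlation within rats (8.95%). On log2(TPM + 1) it was 1 (0.095%), and without S1, S20 and S35 it was 10 (5.26%). With 1 rat left out, 0 to 13 were called (0.00499% to 12.2% of all transcripts). With the rat as a fixed replicate block 0 were called there (0.035% of all transcripts), and 0 in place of 14 in the second batch. The interaction had 14 without S1, S20 and S35 (3.43% of all transcripts), and 1 among the 100 chosen by estimated counts. Liraglutide against no intervention had 5 by DESeq2 and 1 among the 100 chosen by estimated counts, and 0 to 1 when a control rat was left out. Diet restriction against no intervention had 5 with the total count as a term and 17 to 36 when a control rat was left out, and diet restriction against liraglutide had 7 by DESeq2. Tumour against normal endometrium of the second batch had 24 when scaled by library size only, 24 on log2(TPM + 1), 9 with the total count as a term, and 1 to 16 when a rat with tumours was left out. Between batches there were 27 when scaled by library size only, 47 by DESeq2, 35 on log2(TPM + 1), 0 with the total count as a term, 6 among the 100 chosen by estimated counts, and 0 to 10 when a rat was left out. The share of TPM was 40.3% for the 100 chosen by estimated counts, 38.5% for 50 transcripts and 53.9% for 200, and the share of estimated counts was 23.6%. The causes of these changes were not tested. No named fold change reversed its sign. Of the 4 transcripts named for diet restriction, ENSRNOT00000005588.7 was not called with the total count as a term (limma adjusted p = 0.0897), and the other 3 were.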

Other observations

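The difference of tumour from normal endometrium, on the scale of log2(TPM + 1), was also taken within each of the 7 rats that gave both tissues. In the first batch, block 2 was above 0 in the tumour for 16 of 18 transcripts in NCD rat 7 and 17 of 18 in HFD rat 22, but for 8 of 18 in NCD rat 1. Block 1 was above 0 for 25, 17 and 58 of 62 transcripts in these rats. All 3 normal libraries are those described by the study as mixed tissue. In the second batch, block 2 was above 0 for 18 and 17 of 18 transcripts in liraglutide-treated rats 19 and 24, and for 8 and 10 of 18 in diet-restricted rats 2 and 9. Block 1 was above 0 for 4, 2, 9 and 29 of 62 transcripts in these 4 rats, in the same order. Whether the treatments differ in this was not tested, with 2 rats each.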
